A study of Homo sapiens with 12 samples.

Results

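The genes described here are 10 genes of retinoic acid signalling, listed by name: the receptor genes RARA, RARB, RARG, RXRA and RXRB, the binding protein genes CRABP1 and CRABP2, and the enzyme genes CYP26A1, CYP26B1 and DHRS3. Of the 10 genes, 9 had a probe with their symbol, as 16 of the 47323 probes on the array, and 6 had at least 1 probe that was detected, of 12138 genes detected in all. A probe was taken as detected on an array where its detection p-value, the share of negative control probes at least as bright, was under 0.01. CRABP1 had no probe under its symbol and was not analysed here. Expression was measured on Illumina Human HT-12 v4 arrays in SK-N-Be(2)C cells, a human neuroblastoma line of bone marrow origin, in 4 groups of 3 arrays. DoxR-v cells were made resistant to doxorubicin in rising steps over months and received the histone deacetylase inhibitor vorinostat (SAHA) briefly whenever that dose was stepped up. DoxR cells were made resistant in the same way without vorinostat. WT-v cells were parental cells given vorinostat alone at the same times, and WT cells were the untreated parental line. All groups share this 1 cell line. The selected lines were grown apart from one another, so a difference set by vorinostat and one set by the separate selection of a line cannot be told apart. Nothing in the sources used here says that the 3 specimens of a group came from separate cultures, and p-values then measure only the spread between these specimens.

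Retinoic acid is made from vitamin A inside cells and acts on nuclear receptors, the RARs, which bind DNA as pairs with an RXR. Without ligand the pair holds co-repressors with histone deacetylases at its target genes, and with ligand it recruits histone acetyltransferases and the genes are transcribed. CRABP2 carries retinoic acid to the nuclear receptor, CYP26 enzymes break it down, and DHRS3 turns retinaldehyde back into retinol. RARB, CRABP2, CYP26A1 and DHRS3 are themselves known to be raised by retinoic acid, which drives neuroblastoma cells to differentiate and is used as a treatment of this tumour.

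Direct repeats that RAR and RXR pairs are known to bind were looked for in the 250 bases before each annotated start of the 10 genes, and the sequences that held one are shown here because they precede RARB, detected in the resistant lines, and CYP26A1, detected on no array. The promoters are those of RefSeq (GRCh38.p14), 20 for the 10 genes, and 35116 in the whole table. One of the 4 RARB promoters, at chr3:25428013-25428262 on the plus strand, held a direct repeat of GTTCA with 6 bases of any kind between the copies, at bases −52 to −37 from the start, overlapping its 1 match to AGTTCA. The other promoter with this repeat was the second of CYP26A1, at chr10:93073643-93073892, where it lay on the minus strand at bases −90 to −75. In the lines below, each written 5′ to 3′ on the strand of the repeat, capitals mark the repeat.
RARB, chr3:25428204-25428233, plus strand: gggtaggGTTCACCGAAAGTTCActcgcat
CYP26A1, chr10:93073796-93073825, minus strand: acaattaGTTCACCCAAAGTTCAtctttaa
The whole RARB window of 250 bases is given too, because RARB was detected in the resistant lines alone.
RARB promoter: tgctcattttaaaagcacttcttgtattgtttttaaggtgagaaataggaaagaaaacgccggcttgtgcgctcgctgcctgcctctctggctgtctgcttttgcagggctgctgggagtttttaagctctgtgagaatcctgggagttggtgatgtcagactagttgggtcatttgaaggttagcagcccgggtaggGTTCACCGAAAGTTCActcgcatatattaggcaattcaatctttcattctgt
This repeat, searched on both strands and added after the promoters had been read, was found in 17 of the 35116 promoters (0.0484%). Since its form was chosen after that reading, its matches here are no test, and the share is only a description. Any part of the repeat in the RARB signal was not tested. The stricter repeat, in which both copies are either AGGTCA or AGTTCA and 5 bases lie between them, was found in 5 promoters (0.0142%), the CYP26A1 one among them, where it overlapped the first repeat. No RARB promoter held the stricter repeat. With 1 or 2 bases between the copies it was found in 14 (0.0399%) and 2 (0.0057%) promoters, none of them of the 10 genes. Single copies were common, with AGGTCA in 12.1% and AGTTCA in 8.8% of all promoters. The other 18 promoters of the 10 genes, those of RARA, RXRA, RXRB, CRABP2 and DHRS3 among them, held neither of these repeats in this window.

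The retinoid genes did not move as a block. RARB signal was above background in both resistant lines and on no array of the cells without selection (WT-v and WT, called sensitive here), CRABP2 was highest in DoxR cells and much lower in DoxR-v cells, RXRB was lower in both resistant lines, and RARA in DoxR-v cells was above its level in DoxR cells. A gene was called where its fold change passed 1.5 and limma's adjusted p was below 0.1. In DoxR-v cells against WT, 2 of the 6 tested retinoid genes were called, RARB higher and RXRB lower, beside 25.8% of all genes tested. DoxR cells against WT gave 4 of 6, with RARB, CRABP2 and DHRS3 higher and RXRB lower, beside 33.8% of all genes. RARB and DHRS3 were detected on resistant arrays alone, so they entered the tested genes only through groups where they are high. Their calls are not independent of that filter, and nothing about the set is read from the 4 of 6. WT-v cells against WT gave 1 of 6, CRABP2, beside 27.1% of all genes. The 3 comparisons share the same WT arrays.

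DoxR-v cells against DoxR cells gave 2 calls of 6, RARA higher and CRABP2 lower, beside 29.1% of all genes, and DoxR-v against WT-v cells gave 2, RARB higher and RXRB lower, beside 25.4%. The difference of the vorinostat effect is that of DoxR-v against DoxR cells less that of WT-v against WT cells. The separate selection of the DoxR and DoxR-v lines enters it too. It was called for 2 of 6, beside 42.4% of all genes: RARA, positive as in 20.3% of all genes, and CRABP2, negative as in 22.1%. Counts of 1 or 2 in 6 are near the share of all genes called, and nothing about the set as a whole is read from them. RXRA was called in none of the 6 comparisons.

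**Figure D1:**
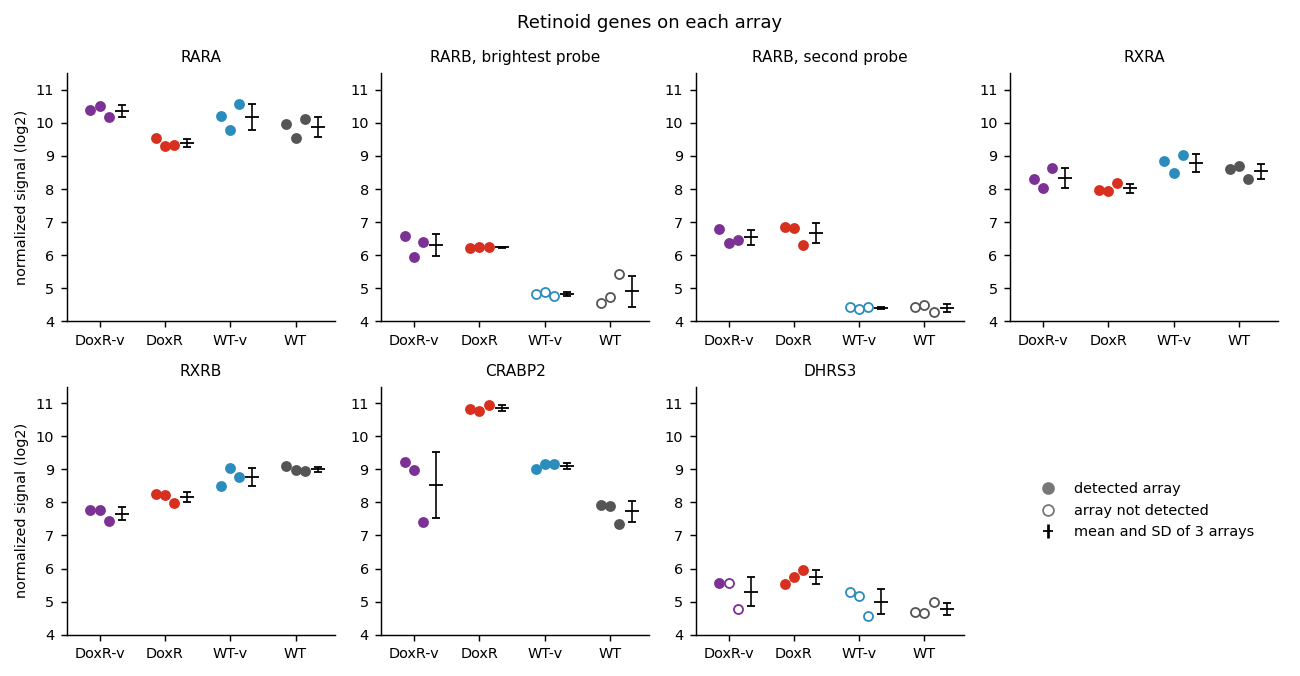
Normalized signal (log2, vertical axis) of the 6 detected retinoid genes on each of the 12 arrays, with RARB shown by its 2 detected probes, filled points for detected arrays, open points for arrays where the probe was not detected, and bars for the mean and SD of 3 arrays. RARB is open in all WT-v and WT arrays, and 1 DoxR-v array of CRABP2 lies at 7.40, below the other two at 9.23 and 8.99.

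RARB encodes the receptor RARβ, whose gene is itself switched on by retinoic acid in many cell types. Its brightest probe read log2 6.58, 5.95 and 6.39 in DoxR-v cells and 6.22, 6.24 and 6.25 in DoxR cells, against 4.83, 4.88 and 4.77 in WT-v cells and 4.56, 4.74 and 5.44 in WT cells. All 6 resistant arrays detected it, none of the 6 sensitive arrays did, and no sensitive array reached the lowest resistant one. Because WT cells gave only a bound, the difference is given as a fold against the lowest signal detected on their arrays: RARB was at least 1.60-fold higher in DoxR-v cells (adjusted p = 0.000362) and at least 1.52-fold higher in DoxR cells (adjusted p = 0.000312). Here and below, the adjusted p beside such a bound is limma's for the measured difference. It does not test the bound, which carries no interval.

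A second RARB probe, annotated to another transcript, showed the same split. It read log2 6.80, 6.36 and 6.46 in DoxR-v cells and 6.86, 6.82 and 6.32 in DoxR cells, against 4.44, 4.38 and 4.43 in WT-v cells and 4.45, 4.51 and 4.28 in WT cells. It was at least 1.88-fold higher in DoxR-v cells (adjusted p = 1.32e-06) and at least 2.05-fold higher in DoxR cells (adjusted p = 3.38e-07) than in WT cells. Against WT-v cells, RARB was at least 1.87-fold higher in DoxR-v cells by the brightest probe (adjusted p = 0.000221) and at least 2.20-fold by the second (adjusted p = 1.36e-06).

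Between DoxR-v and DoxR cells RARB differed by log2 0.07 (95% interval −0.39 to 0.53) with the brightest probe and by −0.13 (−0.49 to 0.24) with the second, and the arrays of these groups overlapped. In WT-v cells against WT it differed by −0.09 (−0.55 to 0.37), with both groups under the detection limit. A further RARB probe, annotated to the same transcript as the second, was detected on no array, its lowest detection p-value being 0.0143. In the deposited normalized values, which are not corrected for background, RARB was higher by log2 0.41 in DoxR-v and 0.38 in DoxR cells (adjusted p = 0.00118 and 0.0015), under the fold of 1.5.

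RARA encodes RARα, the receptor fused to PML in acute promyelocytic leukaemia. It read log2 10.40, 10.51 and 10.17 in DoxR-v cells, 9.53, 9.30 and 9.33 in DoxR cells, 10.19, 9.78 and 10.57 in WT-v cells, and 9.97, 9.55 and 10.11 in WT cells. The DoxR-v arrays all lay above the WT arrays and the DoxR arrays all below them, while WT-v and WT arrays overlapped. In DoxR-v cells RARA was 1.97-fold above DoxR cells (log2 0.98, SE 0.20, adjusted p = 0.00229).

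Against WT cells RARA was within the fold threshold on either side, at log2 0.49 in DoxR-v cells (adjusted p = 0.0922) and −0.49 in DoxR cells (adjusted p = 0.0739). The first was called without WT replicate 3 (0.60) and with median scaling (0.77), and the second without WT replicate 2 (−0.65). In order of level, DoxR-v was followed by WT-v, WT and DoxR cells, and the differences between DoxR-v and WT-v (log2 0.18, 95% interval −0.26 to 0.62) and between WT-v and WT (0.30, −0.14 to 0.74) were within the spread of the arrays. For RARA the difference of the vorinostat effect was log2 0.68 (SE 0.29, adjusted p = 0.0863), a call that was lost when any 1 of 8 single arrays was left out. One further RARA probe was detected on 1 array only, and with the mean of both probes RARA differed between DoxR-v and DoxR cells by log2 0.40, under the fold threshold. The last RARA probe was detected on none.

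RXRA and RXRB encode partner receptors that RARs need in order to bind DNA. RXRB read log2 7.76, 7.78 and 7.44 in DoxR-v cells and 8.25, 8.24 and 7.99 in DoxR cells, against 8.49, 9.04 and 8.77 in WT-v cells and 9.08, 8.97 and 8.94 in WT cells. Every resistant array was below every sensitive array, and the DoxR-v arrays were also below all DoxR arrays. RXRB fell by 1.34 on the log2 scale in DoxR-v cells (SE 0.16, 2.52-fold, adjusted p = 5.91e-05) and by 0.84 in DoxR cells (SE 0.16, 1.79-fold, adjusted p = 0.00122) against WT, and by 1.11 in DoxR-v against WT-v cells (adjusted p = 0.000259).

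The step between the resistant lines was smaller: RXRB differed by log2 −0.50 (95% interval −0.85 to −0.15) in DoxR-v against DoxR cells, which passed the adjusted p (0.0329) but not the fold. Vorinostat alone left it at −0.23 (−0.58 to 0.12) against WT. With median scaling RXRB in DoxR cells differed from WT by −0.53, under the fold threshold.

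RXRA read log2 8.29, 8.04 and 8.65 in DoxR-v cells, 7.96, 7.94 and 8.17 in DoxR cells, 8.85, 8.49 and 9.02 in WT-v cells, and 8.62, 8.70 and 8.29 in WT cells. Only the DoxR arrays lay wholly below the WT arrays. The difference of DoxR from WT cells was log2 −0.51 (95% interval −0.92 to −0.11, adjusted p = 0.0463), under the fold threshold, and it was called without WT replicate 3 (−0.63) or without DoxR replicate 3 (−0.59). DoxR-v against WT-v cells, at −0.46 (adjusted p = 0.0844), was called without WT-v replicate 2 (−0.61) or without DoxR-v replicate 3 (−0.62). In order of level, WT-v was followed by WT, DoxR-v and DoxR cells, with neighbours overlapping on the arrays, the differences being 0.25 for WT-v against WT, −0.21 for DoxR-v against WT and 0.30 for DoxR-v against DoxR cells. DoxR cells against WT-v cells, the ends of that order, differed by −0.77 (adjusted p = 0.00609), a comparison chosen after the means were seen. With median scaling, WT-v against WT was 0.59 and was called.

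RARG, which encodes the receptor RARγ, was detected on no array, with log2 signals of 4.47 to 4.88 and a lowest detection p-value of 0.134. CYP26A1, the hydroxylase gene whose promoter held the second repeat shown above, was likewise not detected by any of its 4 probes, with 48 values of log2 4.34 to 5.23. CYP26B1, a hydroxylase with a similar role, ranged between log2 4.32 and 4.84 and was detected on none. These 3 genes give no comparison, since a low level on these arrays is only a level under the detection limit, where the lowest detected signals were log2 5.28 to 5.76.

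**Figure D2:**
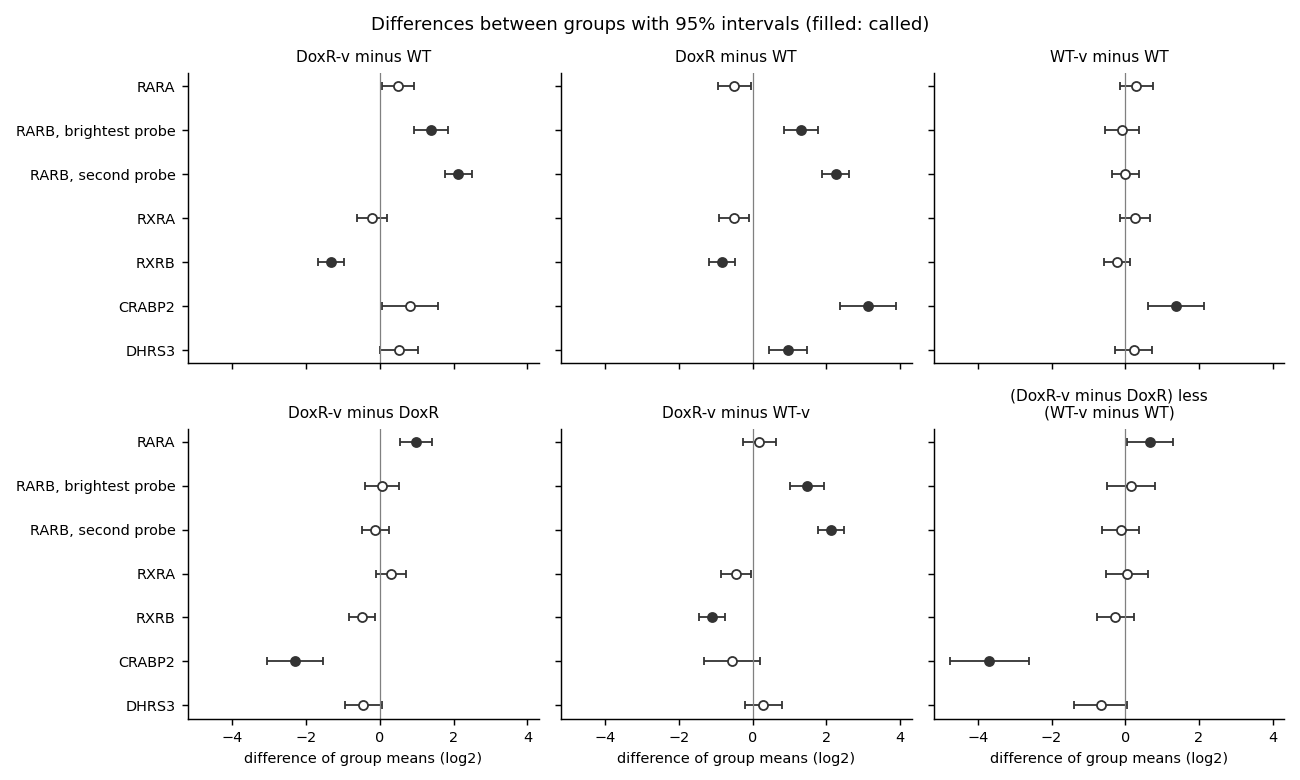
Differences of group means (log2, horizontal axis) for the 6 tested genes, RARB with 2 probes, in the 5 comparisons and in the difference of the vorinostat effect, with 95% intervals, filled where called. RARB differences against WT and WT-v are measured against signals under the detection limit, and CRABP2 spans the widest range, between 3.12 for DoxR minus WT and −3.69 for the difference of the vorinostat effect.

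CRABP2, the cellular retinoic acid binding protein, was the retinoid gene with the largest differences. It read log2 9.23, 8.99 and 7.40 in DoxR-v cells, 10.82, 10.77 and 10.95 in DoxR cells, 9.01, 9.15 and 9.16 in WT-v cells, and 7.93, 7.89 and 7.36 in WT cells. All DoxR arrays were above every other array, the WT-v arrays were above all WT arrays, and the DoxR-v arrays overlapped both. CRABP2 rose 8.69-fold in DoxR cells (log2 3.12, SE 0.35, adjusted p = 1.69e-05) and 2.60-fold in WT-v cells (log2 1.38, SE 0.35, adjusted p = 0.00961) against WT.

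In DoxR-v cells CRABP2 was 4.95-fold lower than in DoxR cells (log2 −2.31, SE 0.35, adjusted p = 0.000234). Vorinostat exposure therefore went with a higher level in parental cells and with a lower one in resistant cells, and the difference between these effects was log2 −3.69 (SE 0.50, adjusted p = 0.000105). DoxR cells were also above WT-v cells, by log2 1.74 (adjusted p = 0.00174) in a comparison added after the means were seen, whereas DoxR-v and WT-v cells differed by −0.57 (95% interval −1.33 to 0.19). The order of means was DoxR, WT-v, DoxR-v and WT.

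Whether CRABP2 was called higher in DoxR-v than in WT cells turned on 1 array and on the processing. With all arrays the difference was log2 0.81 (adjusted p = 0.103), and without DoxR-v replicate 3 it was 1.38 (adjusted p = 0.000262). With all arrays it was also called under 7 of 11 other ways of processing, at log2 0.59 to 1.18. The same array had the lowest DHRS3 value of its group. CRABP2 was the only retinoid gene of the 6 for which DoxR-v replicate 3 lay more than log2 1 below or above both other arrays of its group, which held for 0.618% of all genes, within the range of 0.107% to 0.882% over the 12 arrays. Without this array CRABP2 in DoxR-v cells differed from DoxR cells by −1.73 and stayed called, and from WT-v cells by 0.00, whereas without DoxR-v replicate 1 it differed from WT-v cells by −0.91 and was called lower (adjusted p = 0.0755).

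Neuroblastoma lines can hold mesenchymal-like cells beside adrenergic ones, so mesenchymal markers were set beside CRABP2. The summed normalized signal of the 5 detected genes among 9 mesenchymal markers was 4186 to 5883 in DoxR-v, 14705 to 16144 in DoxR, 7459 to 8514 in WT-v and 2863 to 3114 in WT arrays, the same order of groups as the CRABP2 means. Most of the sum in DoxR arrays came from vimentin, at log2 13.67 to 13.82 there, and not every marker followed this order. SNAI2 was lowest in DoxR-v cells, and COL3A1 was detected on no DoxR-v or WT array. Of these 5 genes, 1 was higher and 2 were lower in DoxR-v, 3 higher and 1 lower in DoxR, and 5 higher in WT-v cells against WT. Of all genes, 25.8%, 33.8% and 27.1% were called in these comparisons, shares that stand beside all marker counts against WT given here. Vimentin (VIM) was higher than in WT by log2 2.32 in DoxR-v, 4.36 in DoxR and 2.70 in WT-v cells, all called. SNAI2, a transcription factor of neural crest and mesenchyme, differed from WT by −0.94 in DoxR-v, 2.40 in DoxR and 1.21 in WT-v cells, all called. VIM, SNAI2 and COL3A1 were the 3 markers higher in DoxR cells. The 1 marker lower there was COL1A1 or TWIST1, the other detected markers. FN1, COL1A2, PRRX1 and YAP1 were detected on no array, and the part of these cells or states in the CRABP2 differences was not tested. Fewer cells of a kind and less RNA per cell cannot be told apart in such samples. All 10 neuroblastoma markers with a probe were detected, 9 of them on every array, and their summed signal was 86123 to 106790 in DoxR-v, 59588 to 65181 in DoxR, 85489 to 91871 in WT-v and 73122 to 100125 in WT arrays. Of the 10, 1 was higher and 4 were lower in DoxR against WT cells, beside 17.4% and 16.3% of all genes. In DoxR-v against DoxR cells 4 were higher and 2 lower, beside 14.7% and 14.5%. Their part in the CRABP2 differences was not tested. Of 7 blood cell markers 2 were detected, with summed signals of 63 to 99 in DoxR-v, 69 to 98 in DoxR, 79 to 92 in WT-v and 146 to 218 in WT arrays, and 1 of these, CD14, was lower in all 3 groups than in WT, while PTPRC, CD3E, ITGAM, HBA1 and HBB were detected on no array. Of 5 epithelial markers 2 were detected, at 139 to 238 in DoxR-v, 75 to 93 in DoxR, 86 to 105 in WT-v and 151 to 166 in WT arrays, with KRT19 lower in DoxR and WT-v cells than in WT, and KRT8, KRT18 and CDH1 on no array.

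DHRS3, which returns retinaldehyde to retinol and so limits the making of retinoic acid, was dim. It read log2 5.55, 5.55 and 4.79 in DoxR-v cells, 5.53, 5.75 and 5.95 in DoxR cells, 5.28, 5.16 and 4.57 in WT-v cells, and 4.68, 4.67 and 5.00 in WT cells. It was detected on all 3 DoxR arrays, 1 DoxR-v array and no sensitive array, and the DoxR arrays lay above every WT-v and WT array. DHRS3 was at least 1.08-fold higher in DoxR than in WT cells (adjusted p = 0.00544), a bound near 1, and was within the fold threshold there in the deposited normalized values (log2 0.25, adjusted p = 0.0212). The DoxR-v mean of log2 5.30 lay under the lowest signals detected on the WT arrays (5.56 to 5.76), so no bound above 1 can be given there. As measured, against WT values under the detection limit, DHRS3 in DoxR-v cells differed from WT by log2 0.52 (95% interval 0.01 to 1.02, adjusted p = 0.117). It differed by 0.78 (adjusted p = 0.0208) without DoxR-v replicate 3 and by 0.62 (adjusted p = 0.0877) without WT replicate 3, both of which were called.

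The genes whose log2 signals ran closest to each of the 5 called retinoid genes over the 12 arrays were found by Pearson correlation over 12132 other genes, as a description, with arrays of the same group sharing their source. For RARA they were PCGF2 (r = 0.959), NAGLU (0.946) and PSME3 (0.940). All 3 lie on chromosome 17, as RARA does, with 36, 30 and 45 measured genes between each and RARA. For CRABP2 they were TIMELESS (0.970), ANKHD1 (0.952) and ADAR (0.951), the last on chromosome 1 with CRABP2. For RARB they were KIFBP (0.978), VPS50 (0.974) and JUP (0.973), and for RXRB EIF2B5 (0.974), ZNF274 (0.969) and GFOD2 (0.962), none on the chromosome of its retinoid gene. DHRS3 ran closest to ATAD1 (0.934), CEP55 (0.922) and RHOBTB1 (0.905), all on chromosome 10, whereas DHRS3 lies on chromosome 1.

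The 10 measured genes on each side of RARA were therefore set beside it, a choice made after these correlations were seen. In DoxR-v against DoxR cells 10 of these 20 neighbours were higher and 1 was lower, with a median of log2 0.59, where the median over all genes was 0.00460 and 14.7% of all genes were higher. MED24, a subunit of the mediator complex, differed by 1.88 and PSMD3, a proteasome subunit, by 1.24, while RARA differed by 0.98. In DoxR against WT cells 7 neighbours were lower and 1 was higher, with a median of −0.45, beside 16.3% of all genes lower. TOP2A, the topoisomerase that doxorubicin targets and the next measured gene after RARA, differed by log2 0.65 in DoxR-v against DoxR cells and by 0.04 in DoxR against WT cells.

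**Figure D3:**
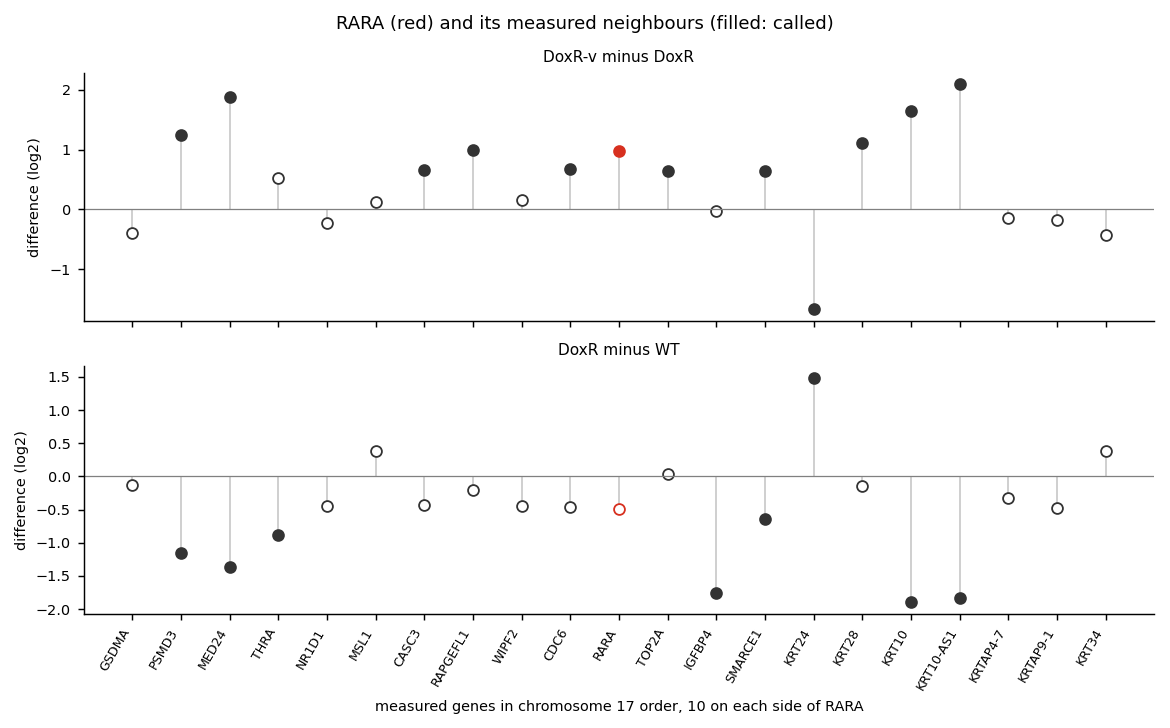
Differences of group means (log2, vertical axis) of RARA, in red, and of the 10 measured genes on each side of it in the order of chromosome 17, filled where called, for DoxR-v minus DoxR (upper panel) and DoxR minus WT (lower panel). In the upper panel 10 neighbours are called higher and KRT24 is called lower, at −1.67, and in the lower panel 7 are called lower.

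The neighbours of the other retinoid genes were counted in the same way. Over all genes, 13.3% were higher and 12.6% lower in DoxR-v against WT cells, and 17.4% were higher and 16.3% lower in DoxR against WT cells, with medians of log2 0.02 and 0.01. Beside RARB 6 of 20 neighbours were higher and none was lower in DoxR-v against WT cells, with a median of log2 0.48, and in DoxR against WT cells 5 were higher and 1 was lower (0.24). TOP2B, the other topoisomerase of its class and the next measured gene after RARB, differed by 0.74 in DoxR-v cells, which was called, and by 0.56 in DoxR cells, which was under the fold threshold. Beside RXRB 7 of 20 were lower and none higher in DoxR cells (median −0.44), and 6 were lower and 1 higher in DoxR-v cells (−0.29), against −0.84 and −1.34 for RXRB itself. Beside CRABP2 the medians were 0.37 in DoxR against WT and −0.27 in DoxR-v against DoxR cells, beside 3.12 and −2.31 for CRABP2. Beside RXRA 3 of 20 were higher and 8 lower in DoxR against WT cells (−0.14), and beside DHRS3 4 were higher and 2 lower (0.04).

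Among genes that supply and convert retinoids, ALDH1A3 stood out in DoxR-v cells. The list held 28 genes, and of 16 tested 2 were higher and 1 was lower in DoxR-v cells, 1 was lower in DoxR cells and 1 was higher in WT-v cells, all against WT, or 18.8%, 6.25% and 6.25% of the list beside 25.8%, 33.8% and 27.1% of all genes. ALDH1A3, which oxidises retinaldehyde to retinoic acid, read log2 6.76, 6.66 and 6.12 in DoxR-v cells, against 5.08, 4.95 and 4.80 in DoxR cells, 5.64, 5.32 and 5.00 in WT-v cells and 4.52, 4.92 and 4.60 in WT cells. It was detected on all DoxR-v arrays, 1 WT-v array and no other, and was at least 1.85-fold higher in DoxR-v than in WT cells (adjusted p = 2.65e-05) and at least 2.10-fold higher than in DoxR cells (adjusted p = 5.84e-05). A second ALDH1A3 probe gave at least 2.20-fold against WT (adjusted p = 9.49e-06). ALDH1A3 was also the gene called higher in WT-v cells against WT (log2 0.64, adjusted p = 0.0283). That call was lost in 3 of 6 repeats with 1 array left out and under 5 of 11 other alternatives. The second probe was not called there (0.47). ALDH1A3 entered the tested genes only through groups where it is high. Its calls, and its part in the share of the list, are not independent of that filter. FABP5, which carries fatty acids and can carry retinoic acid to another receptor, differed by log2 −0.85 in DoxR-v cells against WT (adjusted p = 0.0019) and by the same with a second probe detected on every array, while a further probe, detected on 1 array, was not called (0.22). RDH10, which oxidises retinol to retinaldehyde, was higher in DoxR-v cells by log2 0.62 against WT (adjusted p = 0.00964) and by 0.68 against DoxR cells (adjusted p = 0.00448), and the call against WT was lost without DoxR-v replicate 1 (0.58), DoxR-v replicate 2 (0.57) or WT replicate 1 (0.51), and the call against DoxR cells without DoxR replicate 1 (0.58). ADH5, an alcohol dehydrogenase, differed by −0.65 in DoxR against WT cells (adjusted p = 0.0117), a call lost without WT replicate 1 (−0.55). Both genes were within the fold threshold in the deposited normalized values. LRAT, RBP4 and TTR, which store and transport vitamin A, were detected on no array.

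Of 15 tested co-regulators of nuclear receptors, 3 were higher and 1 lower in DoxR-v, 2 higher and 3 lower in DoxR, and 4 higher and 2 lower in WT-v cells against WT, or 26.7%, 33.3% and 40.0% of the list beside 25.8%, 33.8% and 27.1% of all genes. ZNF423, a zinc finger protein that works with RAR and RXR in neuroblastoma cells, read log2 8.01, 8.07 and 7.87 in DoxR-v cells, 9.57, 9.50 and 9.63 in DoxR cells, 8.87, 8.57 and 9.04 in WT-v cells, and 7.04, 7.12 and 7.45 in WT cells. The groups did not overlap, and their order was that of the CRABP2 means. Against WT, ZNF423 was higher by log2 0.78 in DoxR-v (adjusted p = 0.00228), 2.36 in DoxR (adjusted p = 1.06e-07) and 1.62 in WT-v cells (adjusted p = 9.23e-06). A second, dim ZNF423 probe was higher in DoxR and WT-v cells, at least 1.05-fold in the first, and was within the fold threshold in DoxR-v cells (log2 0.54), as was the first probe there in the deposited normalized values (0.45).

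**Figure D4:**
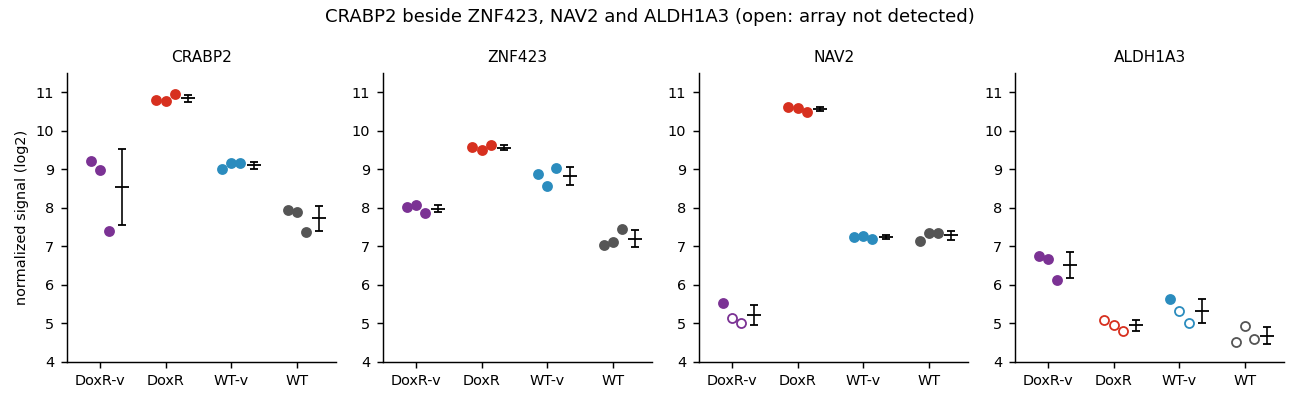
Normalized signal (log2, vertical axis) of CRABP2, ZNF423, NAV2 and ALDH1A3 on each array, with open points where a probe was not detected and bars for the mean and SD of 3 arrays. CRABP2 and ZNF423 are highest in DoxR cells and lowest in WT cells, NAV2 reaches 10.50 to 10.61 in DoxR cells against 5.00 to 5.52 in DoxR-v cells, and ALDH1A3 is detected mainly in DoxR-v cells.

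TBL1X, part of the co-repressor complex that holds HDAC3, was lower in all 3 drug-exposed groups, with log2 differences from WT of −1.57 in DoxR-v (adjusted p = 3.74e-05), −1.55 in DoxR (adjusted p = 2.23e-05) and −1.39 in WT-v cells (adjusted p = 0.000122). The acetyltransferase genes EP300 and KAT2B moved apart in WT-v cells, EP300 at log2 1.73 (adjusted p = 0.000103) and KAT2B, a neighbour of RARB, at −1.67 (adjusted p = 1.69e-05). Among 6 tested receptors that pair with RXR, 1 was lower than in WT in each of the 3 groups: PPARD in DoxR-v cells, and THRA, a thyroid hormone receptor and a neighbour of RARA, in DoxR and WT-v cells. That was 16.7% of the list in each, beside 25.8%, 33.8% and 27.1% of all genes called. PPARD in DoxR-v cells was not called with a second probe, detected on 2 arrays (−0.42), nor in the deposited normalized values (−0.26). A second THRA probe was called in neither DoxR nor WT-v cells and was higher in DoxR-v cells by 0.81 (adjusted p = 0.0223), so the THRA probes disagree.

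Genes known to respond to retinoic acid went both ways. Of 13 tested, 4 were higher and 2 lower in DoxR-v cells, 4 higher and 1 lower in DoxR cells, and 2 higher and 2 lower in WT-v cells, all against WT, or 46.2%, 38.5% and 30.8% of the list beside 25.8%, 33.8% and 27.1% of all genes, with medians of log2 0.13, 0.18 and −0.02 beside medians of 0.02, 0.01 and 0.03 over all genes. NAV2, a neuron navigator raised by retinoic acid in neuroblastoma cells, read 5.52, 5.13 and 5.00 in DoxR-v cells, 10.61, 10.60 and 10.50 in DoxR cells, 7.25, 7.28 and 7.19 in WT-v cells, and 7.15, 7.35 and 7.36 in WT cells. It was higher by log2 3.29 in DoxR cells (adjusted p = 3.5e-09) than in WT cells, and the DoxR-v cells, with NAV2 detected on 1 array, differed from WT by −2.07 (adjusted p = 5.46e-07). The DoxR arrays lay above and the DoxR-v arrays below all others, and WT-v cells differed from WT by −0.04 (adjusted p = 0.856).

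Both further NAV2 probes were higher in DoxR cells than in WT, by log2 1.83 and at least 2.19-fold. In DoxR-v cells against WT the first of these was at least 1.52-fold lower (adjusted p = 0.0027). The other, detected on 3 arrays, was not called there (log2 −0.45, adjusted p = 0.0902). RET, a receptor tyrosine kinase, was higher by log2 1.62 in DoxR cells (adjusted p = 1.68e-05), and its 2 other probes gave 1.21 and 1.35. In DoxR-v cells RET was higher by 0.67 with the brightest probe, a call lost without WT replicate 1 (0.49), and was not called with the other two, at −0.36 and 0.26. MEIS2, a homeobox factor, was higher by 1.38 in WT-v cells (adjusted p = 2.82e-05) and by 1.04 with a second probe, which was also called lower in DoxR-v (−0.66) and DoxR cells (−0.83). RARRES1, named for its response to a retinoid, was detected on all resistant arrays, 2 WT-v arrays and no WT array, and was at least 1.39-fold higher in DoxR-v (adjusted p = 0.000721) and at least 1.83-fold higher in DoxR cells (adjusted p = 2.07e-05) than in WT. A second RARRES1 probe gave at least 1.75-fold and at least 1.37-fold in the same groups, and a further probe, detected on 1 array, was called in neither. RARRES1 entered the tested genes only through groups other than WT, so its calls against WT are not independent of that filter. In the deposited normalized values the brightest RARRES1 probe was within the fold threshold, at log2 0.24 in DoxR-v and 0.39 in DoxR cells against WT.

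**Figure D5:**
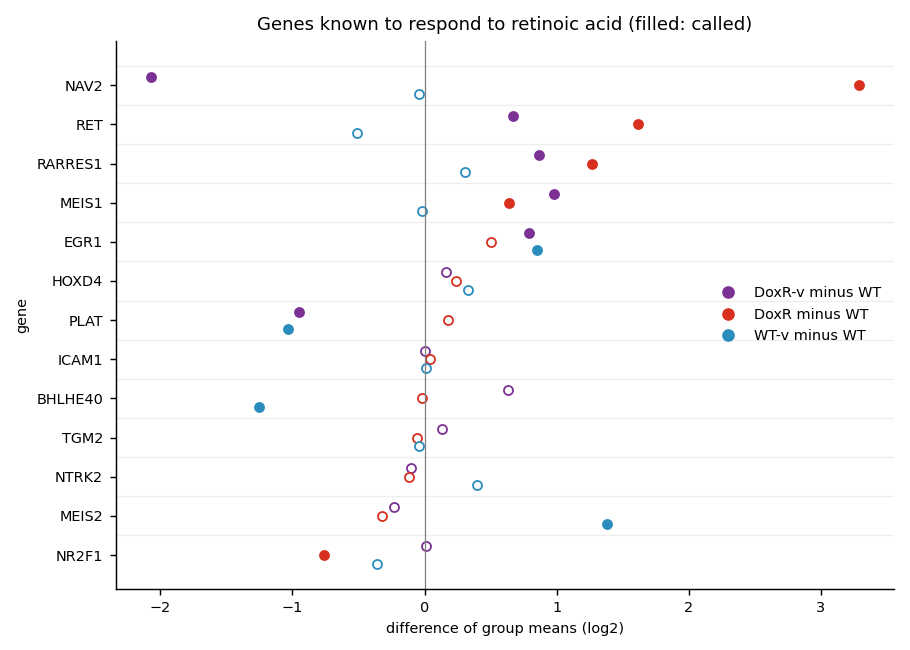
Differences from WT (log2, horizontal axis) of the 13 tested genes known to respond to retinoic acid, in DoxR-v, DoxR and WT-v cells, filled where called. NAV2 has the widest spread, at 3.29 in DoxR and −2.07 in DoxR-v cells, and the other genes lie between −1.25 and 1.62.

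The arrays were alike in quality. Median raw signals were 98.7 to 125.2, 31.3% to 36.5% of probes were detected, and arrays of one group correlated at r = 0.981 to 0.993 over detected probes. The median SD of a gene over the 3 arrays of a group was log2 0.171 in DoxR-v, 0.120 in DoxR, 0.187 in WT-v and 0.213 in WT cells, so that the widest spread was in the group that all others were set against.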

How the data were processed

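The deposited values were a signal intensity for each of 47323 probes on 12 arrays, which the authors did not normalize between arrays, and per the file headers a detection p-value beside each. A second deposited table of intensities had been quantile normalized by the authors and was used as an alternative on a log2 scale. Tools named in the submitters' processing notes were R 3.0.1 and lumi 2.13.3. The genome build and the bead summary step are not given in the sources used here. The intensities received a normexp background correction (offset 16), quantile normalization and a log2 transform. One gene symbol was annotated to 30113 probes, several to 8 and none to 17202. Of the first, 30074 were matched to a RefSeq gene and took its symbol. Probes detected (p under 0.01) on at least 1 array, 21730, were fitted with limma 3.58.1 in R 4.3.3, 1 mean per group, with Benjamini-Hochberg adjustment over all of them. A gene took its brightest probe, and a group detected on none of its arrays gave a bound from the lowest detected signal of each array. The number of arrays limits the precision. The retinoid genes, the gene lists and the tests were chosen with earlier results of these data known. All retinoid genes were named, and of each other list the called genes with the largest differences from WT, at most 4. The fit was tested on simulated data with known changes. The alternatives were other background corrections, scalings, filters, thresholds and probe rules, a replicate block and leaving out each array. Figures used Python 3.11.15 and matplotlib 3.10.9.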

Additional observations from a re-analysis of the deposited data

Results flagged for a closer look

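For CRABP2 and RARA, DoxR-v minus DoxR differed from WT-v minus WT, the difference of the vorinostat effect, by limma's test of that difference. The DoxR-v and DoxR lines were selected separately, so vorinostat and selection cannot be told apart in this difference. For CRABP2 it was log2 −3.69 (SE 0.50, adjusted p = 0.000105), with DoxR-v below DoxR cells by 2.31 and WT-v above WT cells by 1.38, and it was called under every alternative run. For RARA it was log2 0.68 (SE 0.29, adjusted p = 0.0863), with DoxR-v above DoxR cells by 0.98 and WT-v above WT cells by 0.30, and it was called with all arrays but not when any 1 of 8 arrays was left out. Of all genes tested, 42.4% were called in this comparison, 20.3% positive and 22.1% negative. Of the 20 measured neighbours of RARA, 7 were called positive and 2 negative, with a median of log2 0.33.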

How the results depend on the processing

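No called difference of a retinoid gene turned its direction under the alternatives run, nor did any of the 14 genes named from the supply, partner, co-regulator and responsive lists in the 3 comparisons against WT and in DoxR-v against DoxR. The markers and the chromosomal neighbours were not repeated. Of 642 repeated values of the 6 retinoid genes 595 stayed on their side of the threshold, 27 lost a call and 20 gained one, and of 952 for those 14 genes 873 stayed, 64 lost and 15 gained. In what follows counts are given in the order DoxR-v against WT, DoxR against WT, WT-v against WT, DoxR-v against DoxR, DoxR-v against WT-v, and the difference of the vorinostat effect, beside 3136, 4097, 3284, 3535, 3089 and 5148 genes. Without background correction the first 5 were 1655, 2341, 1709, 2100 and 1626 genes, with 2 retinoid genes in DoxR against WT and 1 in DoxR-v against WT-v. With the deposited normalized values all 6 were 1315, 1962, 1398, 1743, 1341 and 2933 genes, again with 2 and 1 retinoid genes in those comparisons. The calls of RARB were lost under both because its fold fell below 1.5, and the count of 2 in DoxR-v against WT then held CRABP2 in its place. At a fold over 2 the counts were 1066, 1774, 1124, 1475, 1121 and 2801 genes, with 2 retinoid genes in DoxR against WT, 1 in DoxR-v against DoxR and 1 in the difference of the vorinostat effect.

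With median scaling the retinoid genes called were 4 in DoxR-v against WT, 2 in WT-v against WT and 1 in the difference of the vorinostat effect. That scaling moved the median of all genes by log2 0.21, 0.18 and 0.21 in the comparisons against WT and by −0.19 in the difference of the vorinostat effect, and 80.5%, 72.6%, 80.2% and 33.2% of the calls were then higher, beside 51.3%, 51.6%, 53.6% and 48% with quantile normalization. Under it the uncalled differences of RXRA in DoxR-v cells (0.15) and RXRB in WT-v cells (0.10) from WT were above 0. The mean of the detected probes of a gene gave 1 retinoid gene in DoxR-v against DoxR and 1 in the difference of the vorinostat effect, and adjusted p under 0.05 or no detection filter gave 1 in that difference, RARA being lost. The RARA value there ran between 0.18 and 0.87 (adjusted p 0.0283 to 0.506).

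Leaving out each array in turn gave 2 to 4 retinoid genes in DoxR-v against WT, 4 to 5 in DoxR against WT and 1 to 3 in the difference of the vorinostat effect. DoxR-v against WT had 4 without DoxR-v replicate 3, with CRABP2 and DHRS3 added, and 4 without WT replicate 3, with RARA and DHRS3 added. Same-numbered arrays did not deviate together (r = −0.273 to 0.115 over 18 pairs), so the number was not used for pairing. With a replicate block 3136, 4090, 3277, 3522, 3088 and 5049 genes were called, with 3, 4, 1, 2, 2 and 2 retinoid genes, CRABP2 being added in DoxR-v against WT (0.81, adjusted p = 0.0851). CRABP2 was added there too with an offset of 50 (0.74), detection on at least 3 arrays (adjusted p = 0.0842), the mean of probes (adjusted p = 0.0856) and median scaling (1.18). A block for the BeadChip was not run, since the files name none. Of genes with dim probes only bounds can be given, and RARG, CYP26A1 and CYP26B1 gave no value above background.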
